A study of Vitis vinifera with 2 samples.

Results

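The 195 genes described here were well expressed in grape (Vitis vinifera) wound tissue given sterile water and stood at least 2-fold lower in wound tissue given the yeast Yarrowia lipolytica. They were chosen from 7264 genes that carry an NCBI locus name (beginning with LOC), have all their transcript models in 1 locus and reach a control FPKM of at least 10. FPKM is a level per length: fragments are divided by the kilobases of their transcript and by the library's size. A gene was a member when log2((treated FPKM + 1)/(control FPKM + 1)) was at most -1. The level and the ratio therefore chose the members, and both are given as a description with no test. Members made up 2.68% of the 7264 genes, and 0.693% of all 28155 such locus names.

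The series has 2 RNA libraries from the wound of grapes kept at 20 °C, both taken 3 days after treatment. The wound of the control library received 10 µL of sterile water, and that of the treated library the same volume of a Y. lipolytica suspension. The labels name no grape cultivar, tissue layer or number of berries, and their strain field names the yeast for both libraries. Each group has n = 1, so no difference below has a replicate check and no p-value is given. Bracketed ranges are 95% counting intervals, which cover counting error alone and not the spread between berries or wounds. In bulk tissue, fewer cells of a type and less RNA per cell cannot be told apart.

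Y. lipolytica is a yeast known as an antagonist of moulds on stored fruit, and a wound is a usual entry point for such moulds. A transcript level reflects both how fast a gene is transcribed and how fast its RNA decays, so a lower level does not show which of them differed. Most plant genes are split into exons by introns that are spliced out of the RNA. In Arabidopsis, genes whose transcripts change quickly under stress have been described as poor in introns. None of the 195 genes has a symbol or synonym in the tables used here, so no function is given to any of them, and they are described by level, structure and position.

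The control library held 19010746 fragment equivalents (300 aligned bases each) and the treated one 20540965. Over the 16040 genes that reached 1 FPKM in one library or the other, the median log2 ratio was -0.28, so a slightly lower FPKM was common. Of these genes 587 (3.66%) were at least 2-fold lower. Where this shift comes from was not tested. With the treated values rescaled to a median ratio of 0, 68 of the 195 members stayed past the limit. Genes known as abundant in ripening berries were high in both libraries. GRIP4 stood at 9967 and 8709 FPKM, TL3 at 5988 and 5931 FPKM, and CHI4D at 6227 and 5468 FPKM (control first here and below). GRIP22, another of them, stood at 794 and 440 FPKM. PSBP1, of the photosystem of green tissue, stood at 1.07 and 0.988 FPKM, low in both.

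The lower genes were mostly of moderate level in the control, with a median of 19.9 FPKM and quartiles of 13.5 and 45.1 FPKM. Their control levels ran from 10.1 to 1080 FPKM, and their treated levels from 0.828 to 536 FPKM with a median of 7.10 FPKM. The other 7069 well-expressed genes had a median control level of 28.4 FPKM. Summed over the members, the level was 9723 FPKM with water and 3802 FPKM with the yeast. That sum was 1.26% and 0.502% of the total FPKM of each library. In the treated library 77 of the members were still at 10 FPKM or more, and 1 was under 1 FPKM.

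Most drops were close to 2-fold. The median log2 ratio of the members was -1.20, beside -0.27 for all 7264 well-expressed genes, and 60 of the members lay between -1.1 and -1. A further 99 lay between -1.5 and -1.1, 21 between -2 and -1.5, 12 between -3 and -2, and 3 below -3. As plain FPKM ratios without the pseudocount, the members stood at 0.0579 to 0.497 times the control, with a median of 0.409 times. The interval of this ratio, scaled to centre on it, lay wholly below 0.5 in 130 members and below 1 in all 195. The rule keeps the ratio itself below 0.5, so the second of these counts was nearly fixed in advance. Such an interval does not cover how fragments were divided among transcript models. The 130 include LOC100250649, at 0.381 to 0.464, and LOC100257499, at 0.436 to 0.497. In aligned bases, taken as a share of each library's total, the log2 ratios of these 2 genes were -0.49 and -0.94, short of a 2-fold drop. The smallest control count behind a member was 132 fragment equivalents and the median was 572.

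**Figure D1:**
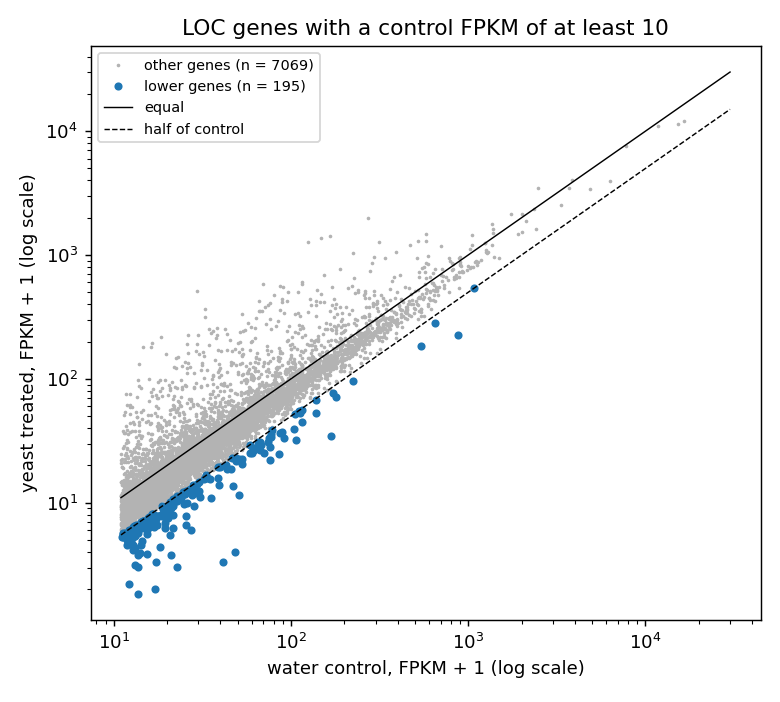
Treated against control FPKM plus 1, both on a log scale, for the 7264 well-expressed LOC genes in 1 library per group. Blue points are the 195 lower genes, which lie below the dashed line of a 2-fold drop, 60 of them within 0.1 of it on the log2 scale.

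The 12 members with the lowest ratios had control levels of 11.2 to 167 FPKM, and 1 of them ended below 1 FPKM. LOC100253810 (chromosome 16, 21084786 to 21086155, plus strand) stood at 40.4 FPKM in the control and 2.34 FPKM with the yeast, 0.0579 times the control (0.0421 to 0.0777). It has 2 transcript models of 2 exons each, and both were lower. The model of 952 bases stood at 23.3 and 2.34 FPKM, and the model of 921 bases at 17.1 FPKM in the control and was listed at 0 in the treated library. LOC100233124 (chromosome 4, 3274435 to 3276122, plus strand), with 3 exons and 1 model, stood at 16.0 FPKM with water and 1 FPKM with the yeast, 0.0624 times (0.0411 to 0.0918). LOC100233114 on chromosome 3, with 2 exons, stood at 12.8 and 0.828 FPKM, 0.0647 times (0.0398 to 0.102), and was the member that ended below 1 FPKM.

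LOC100258937 (chromosome 7, 2918360 to 2920870, minus strand), with 5 exons, stood at 47.6 and 3.03 FPKM, 0.0637 times (0.0464 to 0.0852). It shares its locus and strand with LOC100253790, which stood at 14.4 and 23.2 FPKM. Summed over both names, the locus went from 62.0 to 26.2 FPKM, a log2 ratio of -1.21 where that of LOC100258937 alone was -3.59. The authors' deposited gene table gives 1 value for such a shared locus, with a log2 ratio of -0.28. How fragments were divided between the names was not tested, and the value of LOC100258937 is uncertain.

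Several single-exon genes were among the steepest. LOC100264841 on chromosome 14, a gene of 477 bases, stood at 21.7 and 2.02 FPKM, or 0.0932 times the control (0.0549 to 0.146), with 20 fragment equivalents left in the treated library. LOC100855260 on chromosome 13 stood at 11.2 and 1.21 FPKM, 0.108 times (0.0685 to 0.158). LOC100250504 on chromosome 12 stood at 16.4 and 2.30 FPKM, 0.141 times (0.103 to 0.190). All 3 ended under 3 FPKM. LOC100251313 on chromosome 4 was longer, at 2105 bases, and stood at 49.9 and 10.6 FPKM, 0.212 times (0.192 to 0.235). LOC104878317, on a sequence outside the 19 chromosomes, stood at 26.5 and 5.05 FPKM, 0.191 times (0.149 to 0.244).

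The 12 steepest members were completed by 3 genes with 2 or 3 exons. LOC100241651 on chromosome 13 stood at 20.2 and 2.76 FPKM, or 0.137 times the control (0.103 to 0.176). LOC109121464, outside the chromosomes and not matched in the reference table, stood at 12.8 and 2.05 FPKM, 0.160 times (0.0987 to 0.242). LOC100232872 on chromosome 8, a short gene whose transcript has 360 bases, stood at 167 and 33.5 FPKM, 0.201 times (0.175 to 0.230). It was the single gene that belonged both to the 12 steepest members and to the 10 most abundant.

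The ratios of the most abundant members rest on many more fragments. LOC100265752 (chromosome 10, 5488906 to 5489514, minus strand), a single-exon gene of 609 bases, was the highest, at 1080 FPKM with water and 536 FPKM with the yeast. Its ratio of 0.497 (0.482 to 0.511) put it at the edge of the 2-fold drop, with a log2 ratio of -1.01. LOC100263179 (chromosome 5, 5771417 to 5772199, minus strand), with 3 exons and a transcript of 600 bases, was second, at 879 and 226 FPKM. It stood at 0.257 times the control (0.247 to 0.268), the lowest ratio among the 5 members above 200 FPKM.

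LOC100257676 on chromosome 11 stood at 649 and 283 FPKM, 0.435 times (0.423 to 0.448). Its 2 transcript models, with 3 and 4 exons, were both lower, at 467 and 200 FPKM and at 182 and 82.4 FPKM. LOC100244818, with 3 exons and outside the chromosomes, stood at 538 and 182 FPKM, 0.338 times (0.327 to 0.350). LOC104880899 on chromosome 12, a single exon of 384 bases, stood at 222 and 95.2 FPKM, 0.429 times (0.393 to 0.467). All 5 members above 200 FPKM thus had 3 exons or fewer in the model with the highest control FPKM.

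Among the next most abundant members, LOC100257464 on chromosome 18, with 1 exon, stood at 180 and 70.8 FPKM, or 0.394 times the control (0.369 to 0.421). LOC100250600 on chromosome 2 stood at 172 and 76.5 FPKM, 0.446 times (0.419 to 0.475), and 1 of its 3 measured models was past 2-fold. LOC100233032 on chromosome 16, with 1 exon, stood at 137 and 67.1 FPKM, 0.488 times (0.450 to 0.530), so its interval reached past 0.5. LOC100258198, with 3 exons and outside the chromosomes, stood at 137 and 52.0 FPKM, 0.379 times (0.356 to 0.402).

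**Figure D2:**
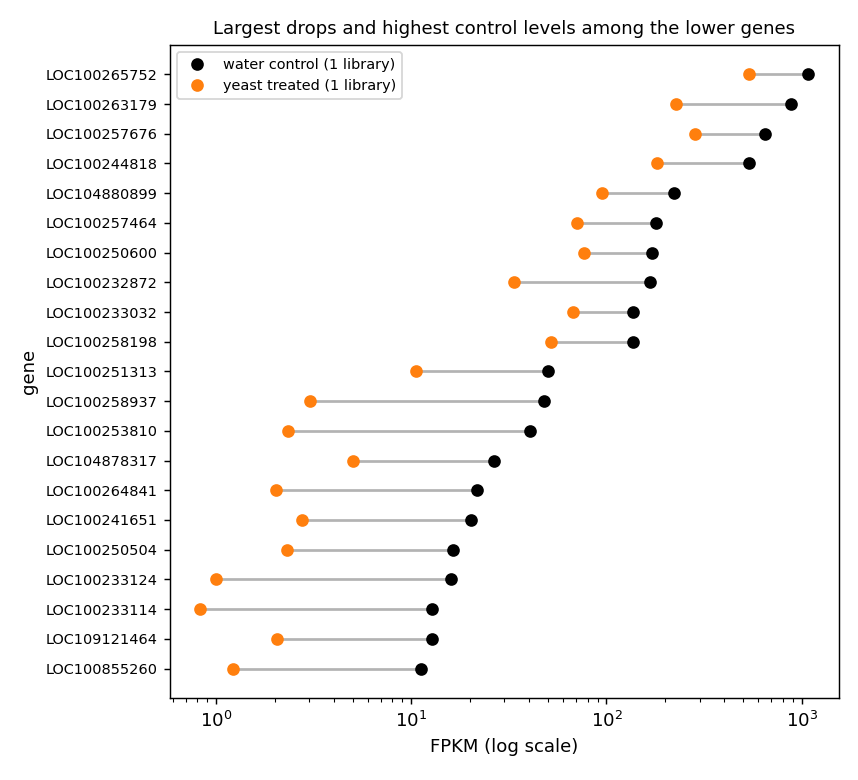
FPKM on a log scale in the water control (black) and the yeast-treated library (orange), 1 library each, for the 12 members with the lowest ratio and the 10 with the highest control level, of which LOC100232872 is in both. The grey line is the drop, which runs from 0.497 times the control at LOC100265752 to 0.0579 times at LOC100253810.

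Exon number was not used to choose the members, and members had fewer exons than the other well-expressed genes. They had a median of 3 exons in their main transcript, the model with the highest control FPKM, against 5 in the other 7069 genes. A single exon was found in 49 of 195 members (25.1%) and in 675 of the 7069 other genes (9.55%). Up to 3 exons were found in 63.1% of members and 33.5% of the others. Of the 12 steepest members 11 had 3 exons or fewer, and so had 10 of the 10 most abundant. Genes are not replicates of a condition, and with 1 library per group these shares describe these libraries and carry no test.

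Read the other way, the share of well-expressed genes that were lower was highest at 1 exon and lowest at 13 or more. It was 6.77% of 724 genes with 1 exon, 4.50% of 912 genes with 2 and 3.86% of 856 genes with 3. It was 1.62% with 4 to 5 exons, 1.37% with 6 to 8, 1.89% with 9 to 12 and 1.06% of 851 genes with 13 or more. The median log2 ratio of the lower genes was -1.22 with 1 exon, -1.24 with 2, -1.29 with 3 and -1.07 in the 9 with 13 or more. The limit of -1 in the rule bounds all of these medians from above.

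The same gradient was present among genes that were higher with the yeast. Of 6663 LOC genes with a treated FPKM of at least 10, 564 (8.46%) were at least 2-fold higher. The higher share was 19.7% of 716 genes with 1 exon, 12.2% with 2, 7.97% with 3 and 3.51% of 740 genes with 13 or more. The 564 higher genes had a median of 3 exons, and 141 of them had a single exon. In these libraries genes with few exons were thus past 2-fold more often in both directions.

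**Figure D3:**
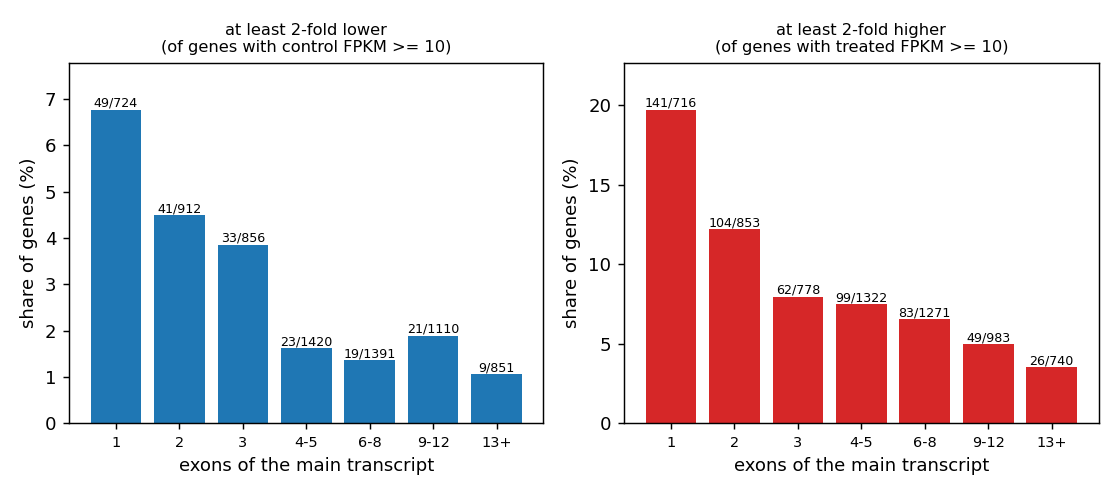
Share of genes (%) at least 2-fold lower (left, of LOC genes with a control FPKM of at least 10) and at least 2-fold higher (right, of those with a treated FPKM of at least 10) by the exon number of the main transcript. Numbers above the bars are genes past 2-fold of all genes in the class. Both shares are highest at 1 exon, 6.77% and 19.7%, and lowest at 13 or more, 1.06% and 3.51%.

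Control level moved with membership too, since 65 of 1530 genes at 10 to 15 FPKM were lower (4.25%) and 5 of 498 genes above 200 FPKM. Within each band of control level the genes with 1 to 3 exons were still lower more often than those with 4 or more. At 10 to 15 FPKM the shares were 6.79% of 471 genes and 3.12% of 1059 genes. At 20 to 40 FPKM they were 4.36% and 1.09%, and at 80 to 200 FPKM 3.55% and 0.381%. Above 200 FPKM, 5 of 237 genes with 1 to 3 exons were lower and 0 of 261 genes with more.

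**Figure D4:**
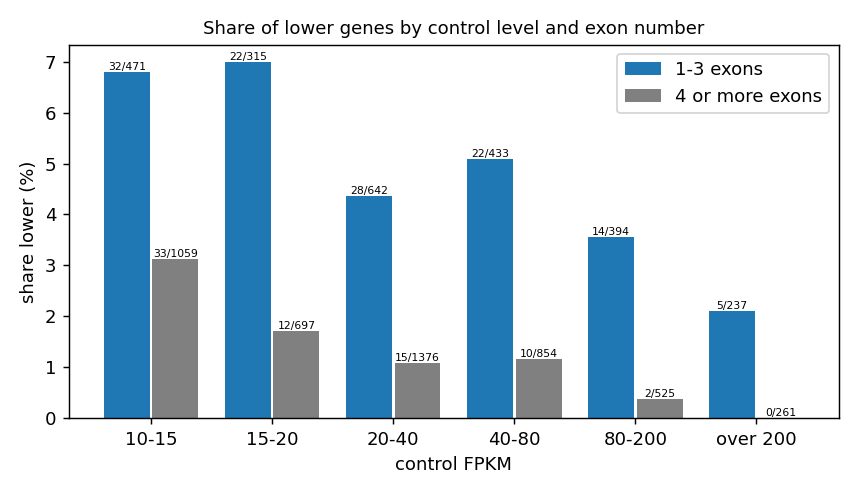
Share of well-expressed LOC genes at least 2-fold lower (%) in bands of control FPKM, for genes with 1 to 3 exons (blue) and 4 or more (grey). Numbers above the bars are lower genes of all genes in the band. The blue bar is the taller in each of the 6 bands, from 6.79% against 3.12% at 10 to 15 FPKM to 2.11% against 0 above 200 FPKM.

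Transcript length differed less than exon number. The main transcript of the members had a median of 1402 bases (quartiles 906 and 1874), against 1546 bases (quartiles 1058 and 2187) in the other well-expressed genes and 1539 bases in the higher genes. Lower genes made up 7.23% of the 83 genes of up to 500 bases and 1.08% of the 741 genes over 3000 bases, with 2.22% to 3.38% in between. Within each band of length the gap by exon number was kept. Up to 1000 bases, 5.21% of genes with 1 to 3 exons were lower and 0.977% of genes with more, and between 1500 and 2000 bases 5.97% and 2.14%.

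In the span a gene takes up on the genome, members and the other genes differed more than in transcript length. The median span of a member was 2293 bases, against 5442 bases in the other well-expressed genes and 2640.5 bases in the higher genes. Span beyond the main transcript, mostly introns, had a median of 674, 3717 and 896 bases in the same order. The shortest member transcript was that of LOC104878241, a single exon of 309 bases that stood at 75.3 and 27.2 FPKM, or 0.361 times the control (0.303 to 0.432). The longest was that of LOC100259790 on chromosome 15, with 11 exons and 5766 bases, at 12.4 and 5.55 FPKM. LOC100252647 on chromosome 7 had 4101 bases in 1 exon and stood at 10.9 and 3.96 FPKM, 0.363 times (0.320 to 0.412). These 3 genes were picked out for their length after the values were seen.

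Members with many exons were few and mostly near the 2-fold line. Of 9 members with 13 exons or more, named after their values were seen, LOC100232974 on chromosome 18 had the steepest drop. It has 14 exons and stood at 69.6 and 24.4 FPKM, or 0.350 times the control (0.331 to 0.370). LOC100243284 on chromosome 17, with 14 exons, stood at 18.0 and 6.87 FPKM, 0.382 times (0.337 to 0.432). LOC100257368 and LOC100258753 had the most exons of all members, 17 each. They went from 18.8 to 7.64 FPKM and from 11.8 to 5.29 FPKM.

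Of the 195 members, 191 matched the reference table by gene number. It lists 185 of them as protein coding, 5 as long non-coding RNA and 1 as a pseudogene. Lower genes made up 2.68% of 6892 protein-coding and 5.05% of 99 non-coding genes at this level, and the second share rests on 5 genes. The 5 non-coding genes were named after their values were seen. LOC100257036 on chromosome 6 was the most abundant, at 74.4 and 32.4 FPKM, or 0.435 times the control (0.399 to 0.474). LOC100241922 stood at 25.9 and 11.9 FPKM, LOC100855083 at 16.3 and 6.46 FPKM, and LOC100854960 at 12.7 and 4.66 FPKM. LOC100854387 stood at 10.5 and 4.63 FPKM, and its log2 ratio of -1.02 was -0.86 in aligned bases. The pseudogene was LOC100244331 on chromosome 1, at 27.5 and 8.43 FPKM, 0.306 times (0.248 to 0.375).

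A single transcript model was listed for 118 members, 60.5%, against 57.6% of the other well-expressed genes. A further 77 had several, up to 11 in LOC100855044. In 70 members more than 1 model reached an FPKM of 1 in either library. Models were classed by the log2 ratio with the pseudocount, which pulls the ratio of a low-level model toward 1. On that scale all measured models were at least 2-fold lower in 13 of these 70 members. In 55, at least 1 model was within 2-fold and none was higher by as much. Some of those models were past 2-fold in plain FPKM, such as 1 of LOC100244155 that went from 1.72 to 0.472 FPKM. In LOC100263040 none of 4 measured models was classed as lower, though 1 went from 1.37 to 0.222 FPKM. In the remaining 2 of the 70 members 1 model was lower and another higher. Those were LOC100250649, outside the chromosomes, and LOC104879512 on chromosome 1.

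In LOC100250649 a model of 1 exon and 684 bases went from 65.5 to 4.97 FPKM, while a model of 2 exons and 1296 bases went from 1.53 to 23.2 FPKM. The gene as a whole stood at 67.0 and 28.2 FPKM, but its log2 ratio of -1.22 was -0.49 in aligned bases. In LOC104879512 a model of 593 bases stood at 12.4 FPKM and was listed at 0 with the yeast, while one of 1009 bases went from 0.696 to 5.31 FPKM. The log2 ratio of that gene was -1.17, and -0.60 in aligned bases. FPKM divides by transcript length, so each fragment of the shorter model weighs more in the summed value. Aligned bases were compared as shares of each library's total, without a pseudocount. On that scale 189 of the 195 members were at least 2-fold lower. By the plain FPKM ratio all 195 were, which the rule fixed in advance, since its pseudocount pulls ratios toward 1.

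Lower genes were found on all 19 chromosomes, with 4 to 18 on each and 13 on other sequences. The share of well-expressed genes that were lower ran from 1.40% on chromosome 19 (4 of 286) to 4.68% on chromosome 2 (14 of 299). Chromosome 4 had the most members, 18 of 418 (4.31%), and chromosome 12 had 12 of 298 (4.03%). Chromosomes 7, 8 and 14, with 442 to 504 well-expressed genes each, had shares of 1.81%, 1.79% and 1.70%. Strands were used about equally, with 93 members on the plus and 102 on the minus strand.

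**Figure D5:**
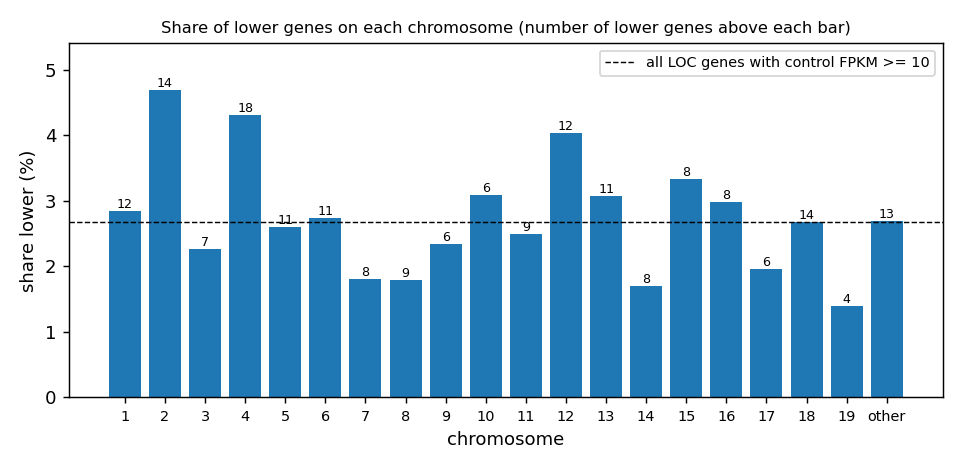
Share of well-expressed LOC genes at least 2-fold lower (%) on each of the 19 chromosomes and on other sequences, with the number of lower genes above each bar. The dashed line is the share over all 7264 genes, 2.68%, and the bars run from 1.40% on chromosome 19 to 4.68% on chromosome 2.

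The 14 members of chromosome 2, named here after the values were seen, did not share a level or a structure. The steepest were LOC100243166, with 2 exons, at 13.1 and 2.92 FPKM, and LOC100251100, with 1 exon, at 84.3 and 24.0 FPKM. The least were LOC100257499, at 112 and 52.1 FPKM, and LOC100266812, at 24.5 and 11.5 FPKM. Exon numbers on this chromosome ran from 1 to 10. On chromosome 4, exon numbers ran from 1 to 14 and log2 ratios from -3.09 at LOC100233124 to -1.0007 at LOC100245594. On chromosome 12, LOC100250504 led with -2.39, followed by LOC100244155, with 2 exons, at 75.5 and 21.3 FPKM.

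Few lower genes lay beside each other, though the share followed by another member was above the share of members among the genes. With all 28155 LOC genes in order of their start, 4 pairs of neighbours were both lower, 8 genes in all. Of the 192 members that have a next gene in that order, 2.08% were followed by another member, where members were 0.693% of the genes. In the order of well-expressed genes alone there were 10 pairs with 19 genes, and 5.21% of members were followed by a member, against 2.68% of genes. Each order included 2 pairs of overlapping genes that share a locus, and the shares above count them. Without them 2 pairs were left in the order of all LOC genes. Of 539 higher genes with a next gene, 23.6% were followed by another higher gene, where higher genes were 8.46% of the genes with a treated FPKM of at least 10. These were 127 pairs, of which 36 overlapped. The difference in adjacency between lower and higher genes was not tested.

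Of the 4 adjacent pairs, 2 were of separate genes. On chromosome 8, LOC100261985 and LOC100232872 lay 10995 bases apart on the plus strand, each with 2 exons. LOC100261985 stood at 17.2 and 3.43 FPKM, or 0.199 times the control (0.144 to 0.271), and LOC100232872 at 0.201 times (0.175 to 0.230). Their control levels lay far apart, at 17.2 and 167 FPKM, while the intervals of their ratios overlapped. On chromosome 1, LOC100244321, with 1 exon, stood at 20.0 and 8.09 FPKM, 3754 bases before the pseudogene LOC100244331. The pseudogene shares its locus with LOC100249476, which also stood lower, at 8.58 and 2.05 FPKM.

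The 2 overlapping pairs cannot be read as separate drops. On chromosome 19, LOC100251788 and LOC100263786 start at the same base, 23424895, and went from 11.8 to 3.17 FPKM and from 34.2 to 9.92 FPKM. On chromosome 9, LOC100265206 and LOC100854069 overlap on the minus strand, at 11.7 and 4.21 FPKM and at 11.9 and 4.79 FPKM. The sources used here do not say how fragments were split within each pair.

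The 6 further pairs, adjacent once genes under 10 FPKM are passed over, differed in distance and level. The closest were LOC100252386 and LOC100262652 on chromosome 15, 628 bases apart on the plus strand, at 115 and 54.9 FPKM and at 10.3 and 4.62 FPKM. On chromosome 11, LOC100262870 stood at 16.6 and 6.87 FPKM, 7342 bases from the abundant LOC100257676. On chromosome 13, LOC100251903 stood at 12.1 and 5.47 FPKM, 17856 bases from the steep LOC100241651. In the first and the second of these pairs the partners lay far apart in control level, and in the third they stood at 12.1 and 20.2 FPKM.

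On chromosome 18, LOC100257368 lay 28310 bases before LOC100252228, which stood at 27.5 and 12.5 FPKM. On chromosome 6, LOC100245043, at 15.5 and 5.52 FPKM, lay 117228 bases before LOC100246831, at 114 and 44.2 FPKM. The latter shares its locus with LOC100263858, at 156 and 131 FPKM. Summed over both names that locus had a log2 ratio of -0.63, where LOC100246831 alone had -1.35. On chromosome 9, LOC100256573, at 10.6 and 4.70 FPKM, lay 268387 bases from LOC100265206.

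Most genes flanking a member were within 2-fold. Over 381 flanking well-expressed genes the median log2 ratio was -0.34, beside -0.26 for the flanks of the other genes. Of these flanking genes 5.25% were lower and 2.89% higher, against 2.65% and 4.86% around the others. The 20 lower ones are the 10 neighbouring pairs given above counted from both sides, so they are no second observation. Of those pairs 2 overlap. A flanking gene between 2 members is counted for both. Spans of 26 members (13.3%) overlapped that of another named gene, against 10.4% of well-expressed genes. In 5 of the 26 every overlapping gene was under 1 FPKM in both libraries. A locus was shared with another name by 11 members. Summed over all names, the locus of LOC100244170 had a log2 ratio of -0.06, where this member alone had -1.21. The loci of LOC100249153, LOC100249254 and LOC100246831 had -0.85, -0.83 and -0.63. In the other shared loci the log2 ratio ran from -1.08 to -1.74. That range includes the locus of LOC100258937, at -1.21, whose aligned bases, not scaled for depth, had a log2 ratio of -0.19. LOC100244170, LOC100249153 and LOC100249254 were named after their values were seen.

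Membership near the thresholds rests on small differences. Just inside the ratio limit were LOC100245594, at 32.3 and 15.6 FPKM, LOC100260662, at 21.8 and 10.4 FPKM, and LOC100255251, at 17.8 and 8.36 FPKM. Just outside were LOC104882628, at 20.8 and 9.89 FPKM, LOC100268031, at 18.9 and 8.99 FPKM, and LOC100247370, at 11.5 and 5.27 FPKM. A log2 ratio between -1 and -1.1 was found in 60 genes, and one between -0.9 and -1 in 94. At the level limit, LOC100265011, LOC100255296 and LOC100262652 stood inside at 10.1, 10.2 and 10.3 FPKM in the control. LOC100260817, LOC104879629 and LOC100257019 stood outside at 9.97, 9.83 and 9.78 FPKM, with treated levels of 4.40, 4.11 and 3.97 FPKM.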

How the data were processed

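Per the file headers, the authors deposited for each library a table of 53908 transcript models giving position, exons and length, FPKM, and coverage, a signal per base that is not adjusted for depth. HTSeq 0.6.1 and HISAT2 (version not named) appear in the submitters' processing notes with no role. Genome build, annotation and the way fragments were divided among transcripts: not given in the sources used here. Coordinates are those of the files. A deposited gene table was treated as a score, because it gives 1 value per locus and 8.78% of the 7264 genes had a control value there within 10% of their summed FPKM.

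FPKM was summed per gene name with Python 3.11.15 and pandas 2.3.3. Aligned bases are coverage times length, and a member's log2 ratio in them compares its shares of each library's total. Of these bases 300 were taken as 1 fragment equivalent. This assumes pairs of 150-base reads, which no source used here states; all fragment counts and intervals rest on it. The read length was inferred from coverage, because of 9794 transcript values under 1000 bases, 22.8% were whole multiples of 150 bases (tolerance 0.5). That the reads came in pairs was assumed, and these multiples do not show it. Intervals are exact binomial on the fragment equivalents (scipy 1.17.1), scaled so that they centre on the FPKM ratio. Where the models of a gene differ in ratio, an interval can therefore leave out the ratio of the equivalents themselves.

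Chromosome numbers and gene types came from RefSeq gene table ASM3070453v1, matched by gene number, with none of its coordinates used. Named genes are the 12 lowest ratios, the 10 highest control levels, neighbouring members and 3 genes on either side of each threshold; others are marked. Members and lists were chosen with earlier results of these data known. Lists by product name, protein comparisons and promoter motifs had been foreseen and were not made.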

Additional observations from a re-analysis of the deposited data

How the results depend on the processing

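No paired analysis was possible because there is 1 library per group, which also leaves no replicate to drop. The count of 195 lower genes became 83 with a pseudocount of 5, 68 after rescaling the treated values to a median ratio of 0 (by a factor of 1.25), 324 with a control FPKM of at least 5 and 96 with at least 20. It stayed within 1.5 times at 251 with a pseudocount of 0.1, 264 with none, 264 in aligned bases, which also carry none, and 179 with the ratio per locus from the deposited gene table, of which 162 were members. The members' median log2 ratio of -1.20 became -0.93 with a pseudocount of 5 and -0.91 after the rescaling. All 195 were still below 0 after the rescaling, which the rule and a factor of 1.25 fixed in advance. The median exon number of 3 became 2 for single-transcript genes, after the rescaling, with a control FPKM of at least 20 and with a mean FPKM of both libraries of at least 10, the last, like the setting with no pseudocount, chosen after seeing the data. In the same order the median transcript length became 1250, 1199, 1218.5 and 1252.5 bases, and 1398 bases without genes with overlapping spans, also chosen after seeing the data. In these 5 settings the share of single-exon genes was 26.0% to 36.4% in lower genes and 9.56% to 15.2% in the rest. The 4 neighbouring pairs became 2 without overlapping spans, 2 after the rescaling and 10 in the order of well-expressed genes. Depth sets counting error alone, and variation between berries is unknown. The cause of these differences was not tested.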

Other observations

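A further 668 locus names had their transcripts in more than 1 locus and were outside the rule, since their summed value joins separate places. Of these, 19 had a control FPKM of at least 10 and a log2 ratio of at most -1. LOC100252590 went from 779 to 18.5 FPKM and LOC100267392 from 70.0 to 0.000118 FPKM, log2 ratios of -5.32 and -6.15, both below that of any of the 195 members. LOC100259740 stood at 1093 and 421 FPKM and LOC100268106 at 799 and 362 FPKM. The remaining 15 had log2 ratios between -2.01 and -1.03. These genes were picked out after their values were seen.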
